A study of Mus musculus with 24 samples.

Results

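The comparison described here is day 90 against day 14 after irradiation, in passage 1 organoids grown from mouse salivary glands. It sets the 3 irradiated passage 1 libraries of day 90 against the 3 irradiated passage 1 libraries of day 14, chosen by their labels. These are 6 of the 24 libraries of the series. All glands came from C57BL/6 mice, and no transgene or deletion is named. The day-14 irradiated (IR) group holds organoids from glands taken 14 days after irradiation, and the day-90 IR group organoids from glands taken 90 days after it. The passage 1 sham groups of the same days, 3 libraries each, and the irradiated passage 2 groups serve to show where the comparison differs. All 24 libraries, the passage 2 sham groups included, also entered the fit. They shaped its filter on low counts, its scaling and the estimate of spread behind every p-value. Neither the labels nor the files used here state the radiation dose, the age of the mice or how many mice stand behind a library. Organoids of both groups were grown in Matrigel with EGF, FGF2, insulin, N2, dexamethasone and Y-27632. The day-14 and day-90 glands were different glands cultured at different times, so the interval since irradiation, the age of the animals and the round of culture cannot be told apart. Nothing in the labels says that replicates came from separate mice. The p-values therefore measure only how far the libraries of the fit spread within their groups, and part of that spread may be technical.

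Salivary gland organoids arise from epithelial stem and progenitor cells of the ducts. Radiation to the head and neck depletes saliva-producing acinar cells, and dry mouth is a known late effect of radiotherapy, which is why the regenerative capacity of the surviving duct cells is studied. Ductal epithelium has a basal layer that expresses Krt5 and Krt14 and a luminal layer that expresses Krt8, Krt18 and Krt7. Acinar cells secrete proteins of saliva such as carbonic anhydrase VI. Basal cells of such glands can also take on a squamous, epidermis-like state with cornified envelope proteins. BMP4, named in the title of the series, is a secreted ligand that signals through SMAD1, SMAD5 and SMAD9 and induces the Id genes, inhibitors of differentiation.

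The libraries were made with QuantSeq, which reads the 3′ end of messages, and hold raw read counts per gene. The 6 libraries held 1151608 to 2192990 gene counts and 13402 to 14742 detected genes, and the shallowest was day-14 IR replicate 2. Levels are given as CPM, counts scaled by library size and TMM factor, in which 3 counts correspond to 1.4 to 2.82 CPM, so values below that carry large counting error. All 10 epithelial markers were detected in every one of the 6 libraries, with a summed level of 9210 to 11400 CPM at day 14 and 5990 to 8570 CPM at day 90. Single markers did not all fall: by log2 fold change, 7 of the 10 were lower and 3 higher at day 90. Means at day 14 and day 90 were 3710 and 2060 CPM for Krt14, 1360 and 914 CPM for Krt5, 549 and 518 CPM for Epcam, and 628 and 889 CPM for Krt18. Defining markers of other cells were at or near 0: Col1a1, Col3a1, Pdgfrb, Cd79a, Cd3d, Cdh5, Plvap, Hba-a1 and Hbb-bs had no count in the 6 libraries, and Ptprc, Pecam1 and Col1a2 did not exceed 1.44 CPM. The summed level of the 18 immune markers, most of it the lysozyme gene Lyz2, was 20.5 to 57.4 CPM at day 14 and 4.62 to 38.1 CPM at day 90. The summed fibroblast markers were 2.82 to 7.18 CPM at day 14 and 1.97 to 7.61 CPM at day 90, the endothelial ones 0.467 to 1.91 and 0.692 to 2.05 CPM, and the neural and glial ones, mostly Ncam1, 43.9 to 64.6 and 23.7 to 42.9 CPM. The neural sums did not overlap between the days, nor did the epithelial ones, and their part in the results was not tested. The share of counts on Gm42418, a locus that collects ribosomal RNA reads, was 23.6%, 24.5% and 21.7% at day 14 and 29.0%, 26.9% and 27.0% at day 90. These shares did not overlap between the groups.

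Organoids from irradiated glands differed between the days in a small set of genes, all of them lower at day 90. The set held secreted products of salivary acini and ducts, proteins of squamous epithelium, transport proteins, the cytokine Il1a and the transcriptional repressors Prdm1, Sox21 and Mxd1. Of 10563 tested genes, 18 passed the test as lower at day 90, which is 0.17% of those tested, and 0 passed as higher, which is 0% (edgeR quasi-likelihood test, two-sided, Benjamini-Hochberg adjusted p below 0.05). Their log2 fold changes, day 90 minus day 14, ran from -4.46 to -0.9, beside a median of 0.02 over all tested genes. At an unadjusted p below 0.05, 3.92% of the tested genes were lower and 2.9% higher at day 90. The 3 libraries of day 90 lay wholly below those of day 14 for 6.71% of the tested genes and wholly above them for 6.24%, and all 18 called genes were among the former. DESeq2 on the same genes called 35 genes, or 0.331%, of which 34 were lower and 1 higher at day 90, and the 35 held all 18.

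**Figure D1:**
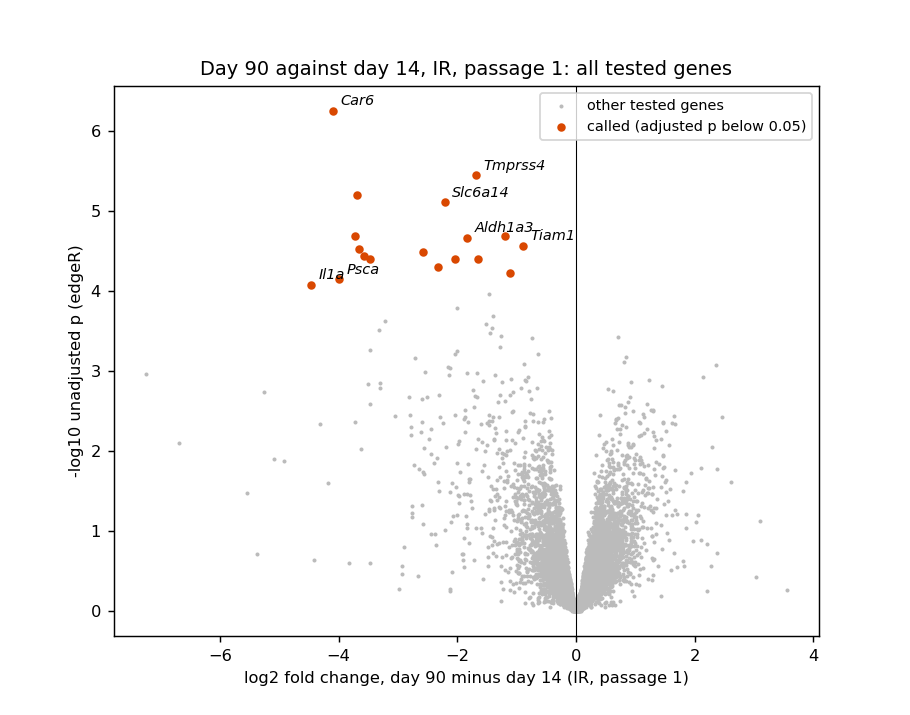
Each point is 1 of the 10563 tested genes, with the log2 fold change of day 90 minus day 14 in irradiated passage 1 organoids on the x axis and -log10 of the unadjusted edgeR p on the y axis. The 18 orange points are the called genes, all at negative fold changes from -4.46 to -0.9.

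The number of calls depended on single libraries. Without day-14 IR replicate 1 or replicate 2 it was 1, and without day-90 IR replicate 1, 2 or 3 it was 2, 0 and 7. Without day-14 IR replicate 3 it was 31, of which 17 were among the 18. Day-14 IR replicate 3 had the lowest level of its group in 16 of the 18 genes, and day-14 IR replicate 2, the shallowest library, had the highest in 13. With the log2 share of Gm42418 as a covariate 19 genes were called, with all 18 among them. With only the compared groups in the fit 3 genes were called, of which 2 were among the 18. All 18 genes kept a negative fold change under every alternative in which they were tested. This carries no separate weight. Their libraries did not overlap between the days, so leaving out 1 could not turn the sign. The other alternatives used the same counts by which the genes were chosen.

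**Figure D2:**
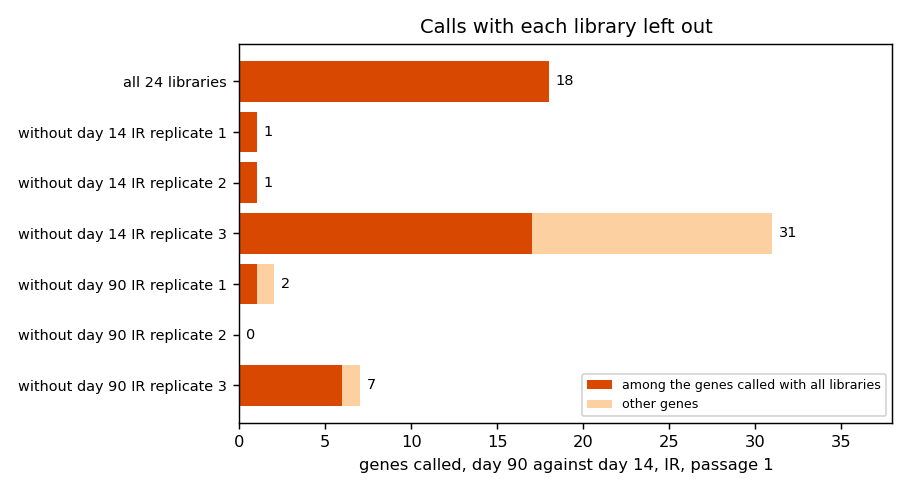
Bars give the number of genes called in day 90 against day 14 with all 24 libraries in the fit and with each of the 6 compared libraries left out in turn. The dark part counts genes that were also called with all libraries. Calls ran from 0 without day-90 IR replicate 2 to 31 without day-14 IR replicate 3.

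The promoters of some called genes are shown so that the letters just before their starts can be read beside the levels that follow. The sequences are the 250 bases before the RefSeq start on GRCm38.p6, 5′ to 3′, while the submitters' processing notes name GRCm39 for the counts. Capitals mark matches on either strand to the AP-1 motif TGANTCA, which binds Fos and Jun proteins, and to the TATA box motif TATAAA. Car6, the gene with the smallest p, is shown for a window with neither, and the other 4 for their TGANTCA match.
Car6, chr4:150201136-150201385, minus strand: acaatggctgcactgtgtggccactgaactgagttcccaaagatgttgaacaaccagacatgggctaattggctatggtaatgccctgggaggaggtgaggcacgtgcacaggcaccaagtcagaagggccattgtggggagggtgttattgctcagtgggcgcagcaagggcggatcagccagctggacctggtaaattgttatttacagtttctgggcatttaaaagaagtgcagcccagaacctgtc
Sbsn, chr7:30751221-30751470, plus strand: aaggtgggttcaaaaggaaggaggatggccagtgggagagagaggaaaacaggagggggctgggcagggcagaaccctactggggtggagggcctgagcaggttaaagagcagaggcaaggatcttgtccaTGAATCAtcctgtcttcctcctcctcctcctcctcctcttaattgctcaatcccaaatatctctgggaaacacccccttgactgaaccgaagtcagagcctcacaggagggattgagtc
Il1a, chr2:129309973-129310222, minus strand: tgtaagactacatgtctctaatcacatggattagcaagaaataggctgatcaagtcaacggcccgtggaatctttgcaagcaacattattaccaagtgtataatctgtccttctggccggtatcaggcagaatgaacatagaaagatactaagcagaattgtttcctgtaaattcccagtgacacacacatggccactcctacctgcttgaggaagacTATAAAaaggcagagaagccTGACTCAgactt
Prdm1, chr10:44458749-44458998, minus strand: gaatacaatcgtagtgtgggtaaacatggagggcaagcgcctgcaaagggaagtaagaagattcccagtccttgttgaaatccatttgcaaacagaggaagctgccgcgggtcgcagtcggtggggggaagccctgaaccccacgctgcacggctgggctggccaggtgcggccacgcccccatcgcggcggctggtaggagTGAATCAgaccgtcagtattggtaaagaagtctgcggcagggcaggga
Slc6a14, chrX:21714650-21714899, plus strand: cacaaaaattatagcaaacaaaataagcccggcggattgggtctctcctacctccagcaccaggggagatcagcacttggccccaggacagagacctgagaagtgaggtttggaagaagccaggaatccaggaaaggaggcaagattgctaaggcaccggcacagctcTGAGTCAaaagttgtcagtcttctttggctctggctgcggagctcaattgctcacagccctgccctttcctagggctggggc
Of the 18 called genes, 14 had a promoter entry, with 19 windows in all. The loosened AP-1 motif TGANTCA was in 5 of these windows (26.3%), those of Sbsn, Il1a, Prdm1, Slc6a14 and Tiam1. It was in 6.75% of all 32851 RefSeq windows of this length. The matches began 119, 12, 48, 82 and 15 bases before the start. Il1a (TGACTCA) and Slc6a14 (TGAGTCA) have C or G in the middle. Sbsn and Prdm1 (TGAATCA) and Tiam1 (TGATTCA) do not and match only the loosened form. The share of windows with the stricter form was not counted. TATAAA was in 15.8% of the 19 windows and 12.4% of all, and the Grainyhead-like motif AACCNGNT in 15.8% and 7.61%. TGANNNNGC, a loosened form of the antioxidant response element core, was in 31.6% and 35.2%. The BMP-responsive motif GGCGCC was in none of the 19 and in 9.59% of all. Both strands were searched and the motifs can overlap. These 5 motifs were chosen after a wider set had been looked at, and a match is a description of the letters, not of a bound site.

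Secreted products of the gland were among the most strongly reduced genes. Car6, the carbonic anhydrase secreted into saliva, had 75.6, 121 and 26.1 CPM at day 14 and 6.16, 2.63 and 3.46 CPM at day 90. The lowest day-14 library was well above the highest day-90 one. The difference was 17.1-fold (log2 fold change -4.09 ± 0.57 SE, n = 3 per group, edgeR adjusted p = 0.0059), and it lost its call in 1 of the 15 alternatives, without day-90 IR replicate 2 (adjusted p = 0.0814). Mucl2, a mucin-like gene of salivary secretion, had 78.0, 145 and 29.9 CPM at day 14 against 11.3, 6.58 and 3.46 CPM at day 90 (log2 fold change -3.48 ± 0.64, edgeR adjusted p = 0.0303). Scgb2b27, a secretoglobin, had 39.2, 74.3 and 17.7 CPM against 6.16, 1.97 and 0.692 CPM (log2 fold change -3.72 ± 0.69, adjusted p = 0.0303). In these 3 genes day-14 replicate 2 was the highest and replicate 3 the lowest, with no overlap between the days. Mucl2 and Scgb2b27 belong to families with similar copies, between which reads can be split, and are uncertain for that reason. The gene 2310057J18Rik, named after its value was seen, went from 22, 39.5 and 20.1 CPM to 3.59, 0.658 and 1.38 CPM (log2 fold change -3.69 ± 0.63, edgeR adjusted p = 0.0206).

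Most tested secretory genes did not pass the test. Of 40 acinar and granular secretory genes in the files, 17 were tested, 2 were called, both lower (Car6 and Mucl2), beside 0.17% of all tested genes, and the median log2 fold change was -0.29. At an unadjusted edgeR p below 0.05, 4 were lower and 0 higher, beside 3.92% and 2.9% of all tested genes. Of the 17, 13 were negative, as were 47.5% of all tested genes. Pip, the prolactin-inducible protein of saliva, had 107, 316 and 291 CPM at day 14 and 115, 50.7 and 10.4 CPM at day 90 and was not called (log2 fold change -1.99 ± 0.68, edgeR adjusted p = 0.444). Its libraries overlapped. Prol1, a proline-rich secreted protein, had 29.7, 82.8 and 28.0 CPM against 12.3, 0.658 and 0 CPM. Its libraries did not overlap (log2 fold change -3.23 ± 0.74, edgeR adjusted p = 0.114). Aqp5, the water channel of acinar cells, had 20.1, 25.4 and 27.1 CPM against 64.7, 30.9 and 17.3 CPM, with overlap and no call (log2 fold change 0.67 ± 0.45, edgeR adjusted p = 0.893). In organoids, fewer cells of a type and less RNA per cell cannot be told apart.

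**Figure D3:**
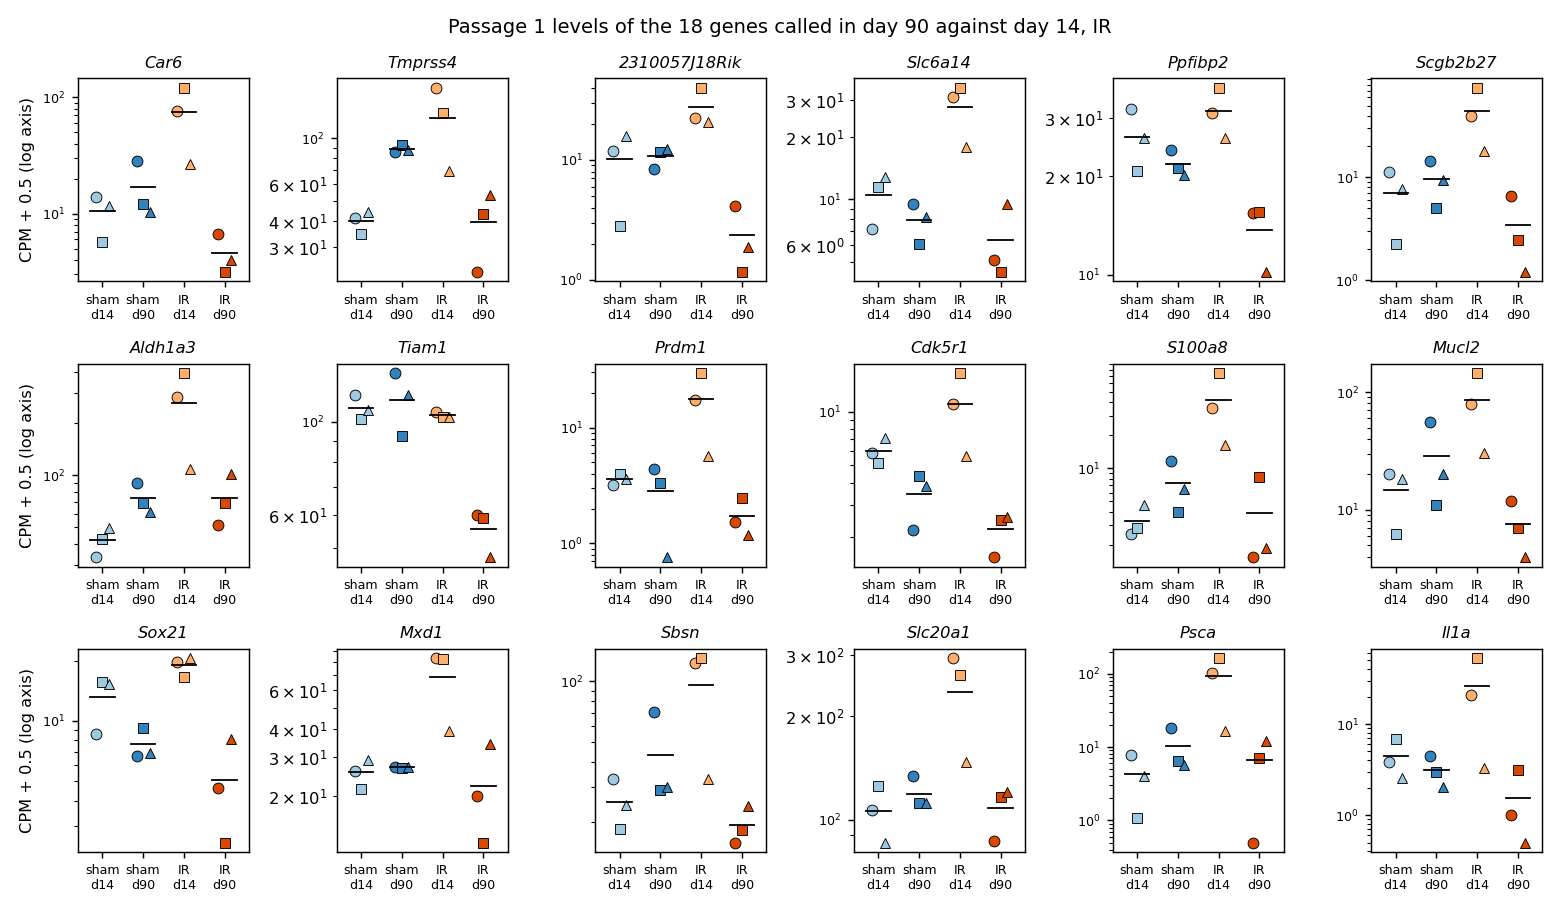
Each panel is 1 of the 18 called genes, in order of p, with the level of every passage 1 library as CPM + 0.5 on a log axis. Circles, squares and triangles are replicates 1, 2 and 3 of a group, and the line is the group mean. In every panel the day-90 IR libraries lie below the day-14 IR ones, and in 17 of the 18 the day-14 IR mean is above the day-14 sham mean.

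Genes of squamous epithelium were lower at day 90 as a group of values. Of 70 listed squamous and cornified envelope genes in the files, 41 passed the filter on low counts. Of these, edgeR called 3 and DESeq2 called 7, all lower, where edgeR called 0.17% of all tested genes lower and DESeq2 0.331% in either direction. At an unadjusted p below 0.05, 20 of the 41 were lower and 0 higher, and in 18 of the 41 the day-90 libraries lay wholly below the day-14 ones. Over all tested genes these shares were 3.92%, 2.9% and 6.71%. The median log2 fold change of the 41 was -1.39, and 39 of them were negative. The mean log2 CPM over the 41 was 5.37, 5.69 and 4.2 in the day-14 libraries and 3.32, 3.75 and 3.75 in the day-90 libraries, so the day-14 libraries were the higher ones, replicate 3 least so. Over the alternatives the median ran from -1.75 to -1.11 and the number lower at unadjusted p from 15, without day-14 IR replicate 2, to 33, without the filter on low counts.

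The 3 members called by edgeR were S100a8, Sbsn and Psca. S100a8, a subunit of the calcium-binding protein calprotectin, had 35.4, 74.3 and 15.9 CPM at day 14 and 1.03, 7.9 and 1.38 CPM at day 90 (log2 fold change -3.57 ± 0.69, edgeR adjusted p = 0.0303). Sbsn, which encodes the epidermal protein suprabasin, had 123, 130 and 32.2 CPM against 15.4, 17.8 and 23.5 CPM (log2 fold change -2.32 ± 0.46, adjusted p = 0.0356). Psca, a lipid-anchored cell surface protein, had 101, 164 and 16.3 CPM against 0, 6.58 and 11.8 CPM (log2 fold change -3.99 ± 0.82, adjusted p = 0.044). In each, day-14 replicate 3 was the lowest of its group and stood nearest to the day-90 libraries.

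The other squamous members did not pass the edgeR test, and those given here were chosen after their values were seen. DESeq2 also called Krt6a (DESeq2 adjusted p = 0.00143), Cdsn (0.0192), Scel (0.0219) and Lypd3 (0.0268). Krt6a, a keratin of stressed and wound-edge epithelium and the most abundant member named, had 1910, 2870 and 1110 CPM at day 14 and 367, 665 and 426 CPM at day 90 (log2 fold change -2.01 ± 0.44, edgeR adjusted p = 0.0849). Its partner Krt16 had 196, 366 and 49.0 CPM against 10.3, 32.9 and 18.7 CPM (adjusted p = 0.276), and Krt6b had 240, 469 and 42.5 CPM against 1.54, 15.1 and 41.5 CPM (adjusted p = 0.355). Krt6a and Krt6b are near-identical genes, so their reads can be exchanged. Spink5, the epidermal protease inhibitor, had 397, 739 and 115 CPM against 24.6, 79.0 and 75.5 CPM (adjusted p = 0.295). In all 4 the groups did not overlap, and day-14 replicate 3 was the lowest of its group. Grhl3 and Ovol1, transcription factors of epidermal differentiation, had 16.8, 21.6 and 5.6 CPM against 4.62, 3.29 and 4.85 CPM (adjusted p = 0.295) and 16.8, 16.9 and 5.13 CPM against 4.62, 4.61 and 0.692 CPM (adjusted p = 0.394).

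**Figure D4:**
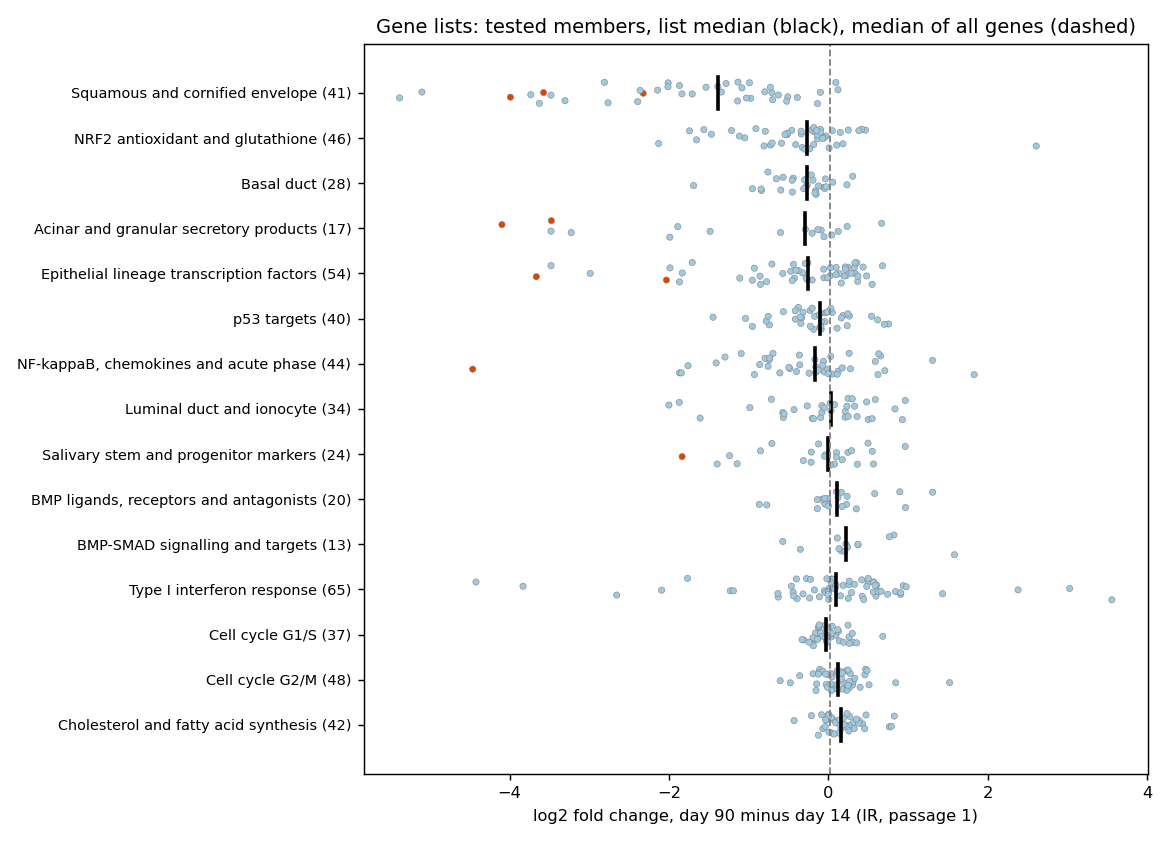
Each point is a tested member of a gene list, with its log2 fold change of day 90 minus day 14 in irradiated passage 1 organoids on the x axis, jittered vertically. Numbers in brackets are tested members, black bars are list medians, the dashed line is the median of all tested genes (0.02) and orange points are called genes. The squamous median of -1.39 is the farthest from the dashed line among the lists drawn.

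Aldh1a3 and Tmprss4 were among the called genes with the highest levels. Aldh1a3, which makes retinoic acid and has been used as a mark of ductal progenitors, had 286, 393 and 109 CPM at day 14 and 50.8, 68.4 and 101 CPM at day 90 (log2 fold change -1.84 ± 0.34, edgeR adjusted p = 0.0303). Day-14 replicate 3 was barely above day-90 replicate 3. Tmprss4, a membrane-bound serine protease, had 175, 132 and 69.1 CPM against 22.1, 42.8 and 52.6 CPM (log2 fold change -1.69 ± 0.28, edgeR adjusted p = 0.0187). Of the 16 tested retinoic acid genes, 1 was called (Aldh1a3, lower), beside 0.17% of all tested genes, and the median was 0.05. At an unadjusted edgeR p below 0.05, 3 were higher and 2 lower, beside 2.9% and 3.92% of all tested genes. Rarb, a retinoic acid receptor, went opposite to Aldh1a3 without a call, with 1.44, 0.94 and 1.87 CPM at day 14 and 4.11, 10.5 and 9.69 CPM at day 90 (edgeR adjusted p = 0.545).

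Transporters formed a pair among the calls. Slc6a14, an amino acid transporter, had 30.6, 33.9 and 17.3 CPM at day 14 and 4.62, 3.95 and 9.0 CPM at day 90 (log2 fold change -2.21 ± 0.38, edgeR adjusted p = 0.0206). Slc20a1, a sodium-phosphate cotransporter, had 293, 261 and 146 CPM against 86.3, 116 and 120 CPM (log2 fold change -1.12 ± 0.23, adjusted p = 0.0391). Both had day-14 replicate 3 as the lowest of its group, still above every day-90 library.

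Among regulators, Prdm1, the repressor BLIMP1 of epithelial and lymphoid differentiation, had 16.8, 29.2 and 5.13 CPM at day 14 and 1.03, 1.97 and 0.692 CPM at day 90 (log2 fold change -3.66 ± 0.7, edgeR adjusted p = 0.0303). Sox21, a repressor of the SOX family, had 19.1, 16 and 20.1 CPM against 4.11, 1.97 and 7.61 CPM (log2 fold change -2.03 ± 0.4, adjusted p = 0.0303), and here replicate 3 was the highest of the day-14 group. Mxd1, which competes with MYC for MAX, had 83.3, 82.8 and 38.7 CPM against 19.5, 11.8 and 33.9 CPM (log2 fold change -1.64 ± 0.32, adjusted p = 0.0303). Prdm1 and Sox21 were the 2 called members, both lower, among 54 tested epithelial lineage transcription factors, whose median was -0.26. Over all tested genes 0.17% were called lower.

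Signalling genes completed the set. Il1a, the epithelial alarm cytokine, had 20.6, 52.7 and 2.8 CPM at day 14 and 0.513, 2.63 and 0 CPM at day 90, which rests on 105 and 5 counts (log2 fold change -4.46 ± 0.93, edgeR adjusted p = 0.049). Its day-14 libraries spread widely, and replicate 3 lay just above the highest day-90 library. Tiam1, an activator of the GTPase Rac, was even within each group, at 105, 102 and 102 CPM against 59.6, 58.6 and 47.1 CPM, and had the smallest fold change of the 18 (log2 fold change -0.9 ± 0.17, adjusted p = 0.0303). Cdk5r1, the activator of the kinase CDK5, had 10.5, 16 and 5.13 CPM against 1.03, 1.97 and 2.08 CPM (log2 fold change -2.57 ± 0.49, adjusted p = 0.0303). Ppfibp2, a liprin scaffold protein, had 30.6, 36.7 and 25.7 CPM against 14.9, 15.1 and 9.69 CPM (log2 fold change -1.19 ± 0.22, adjusted p = 0.0303). Tmprss4, Ppfibp2, Tiam1, Mxd1 and Slc20a1 are named beyond the rule by size and list because the set is small.

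Stress lists held few calls. Of 46 tested antioxidant and glutathione genes governed by NRF2, 0 were called by edgeR, and DESeq2 called 2, both lower (Srxn1 and Gsto1). At an unadjusted p below 0.05, 11 were lower and 1 higher, beside 3.92% and 2.9% of all tested genes, and the median was -0.26. Without day-14 IR replicate 2 the 11 became 4 and the median -0.14. Srxn1, which repairs oxidised peroxiredoxins, had 134, 111 and 62.1 CPM at day 14 and 22.1, 33.6 and 56.1 CPM at day 90 (log2 fold change -1.47 ± 0.31, edgeR adjusted p = 0.0605, DESeq2 adjusted p = 0.00505). Gclc, the rate-limiting enzyme of glutathione synthesis, had 753, 986 and 414 CPM against 247, 379 and 366 CPM (adjusted p = 0.294). Gsto1, a glutathione transferase, had 874, 1190 and 429 CPM against 202, 288 and 355 CPM (edgeR adjusted p = 0.26, DESeq2 adjusted p = 0.048). The groups did not overlap in these 3 genes, and day-14 replicate 3 was again the lowest of its group.

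Of 40 tested p53 targets, 0 were called by edgeR, 5 were lower and 1 higher at an unadjusted p below 0.05 (3.92% and 2.9% of all tested genes), and the median was -0.11. Cdkn1a, the cell cycle inhibitor p21, had 459, 529 and 272 CPM at day 14 and 283, 270 and 198 CPM at day 90, with overlap (log2 fold change -0.74 ± 0.27, edgeR adjusted p = 0.493). Mdm2, the ligase that degrades p53, had 118, 114 and 90.6 CPM against 114, 113 and 85.8 CPM (adjusted p = 0.998). Pmaip1, the cell death protein NOXA, had 80.9, 99.7 and 51.3 CPM against 34.9, 32.2 and 15.9 CPM, with no overlap (edgeR adjusted p = 0.136, DESeq2 adjusted p = 0.00898), and was the 1 member DESeq2 called. Of 44 tested NF-kappaB and chemokine genes, edgeR called 1 (Il1a, lower) and DESeq2 called 3 (Il1a, Irf1 and Nfkbia, all lower), and the median was -0.16. Over all tested genes edgeR called 0.17% lower and DESeq2 0.331% in either direction. Irf1, an interferon regulatory factor, had 78.0, 124 and 98.5 CPM against 42.6, 40.8 and 28.4 CPM (edgeR adjusted p = 0.126, DESeq2 adjusted p = 0.0111). Nfkbia, the inhibitor of NF-kappaB, had 2900, 4050 and 3580 CPM against 2210, 2000 and 732 CPM (edgeR adjusted p = 0.26, DESeq2 adjusted p = 0.048). The log2 fold changes of Irf1 and Nfkbia were -1.41 and -1.09 in irradiated organoids and -0.95 and -0.91 in sham. The median of this list was -0.23 in sham, where edgeR called none of its members. Of 65 tested interferon response genes, 0 were called by edgeR, 1 was lower and 0 higher at an unadjusted p below 0.05, and the median was 0.09.

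BMP genes did not pass the test. Bmp4 itself had 5.74, 6.58 and 12.1 CPM at day 14 and 14.4, 15.1 and 17.3 CPM at day 90, where every library was above every day-14 one. The log2 fold change was 0.9 ± 0.42 (n = 3 per group, unadjusted p = 0.0461, edgeR adjusted p = 0.709). Id1, a direct BMP target, had 49.8, 72.4 and 85.4 CPM against 104, 93.4 and 156 CPM, with no overlap (log2 fold change 0.76 ± 0.46, adjusted p = 0.849). Id3 had 121, 150 and 223 CPM against 134, 193 and 225 CPM, with overlap (log2 fold change 0.16 ± 0.5, adjusted p = 0.998). In sham the log2 fold changes over the same days were 0.06 for Bmp4, 1.25 for Id1 and 0.14 for Id3, without a call by edgeR. Of 36 BMP ligands, receptors and antagonists in the files, 20 were tested, 0 were called by edgeR, 4 were higher and 1 lower at an unadjusted p below 0.05 (2.9% and 3.92% of all tested genes), and the median was 0.11. The genes at unadjusted p included Smoc2, a secreted BMP modulator, with 11, 14.1 and 23.3 CPM against 39.0, 44.1 and 38.8 CPM (adjusted p = 0.412). They also included Fst, the activin and BMP antagonist follistatin, with 147, 174 and 296 CPM against 153, 119 and 65.8 CPM (adjusted p = 0.596). Of 13 tested BMP-SMAD genes 0 were called, and the median was 0.22.

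The duct keratins and the cell cycle showed no called change. Krt5 had 1080, 1680 and 1310 CPM at day 14 and 1140, 1190 and 413 CPM at day 90 (log2 fold change -0.57 ± 0.43, edgeR adjusted p = 0.923). Krt14 had 3490, 4550 and 3070 CPM against 2250, 2610 and 1330 CPM, without overlap (log2 fold change -0.84 ± 0.33, adjusted p = 0.565). Of 28 tested basal duct genes 0 were called by edgeR or DESeq2, and 4 were lower and 0 higher at an unadjusted p below 0.05 (3.92% and 2.9% of all tested genes). In 5 the day-90 libraries lay wholly below the day-14 ones (6.71% of all tested genes). Of the 28, 25 were negative, as were 47.5% of all tested genes, and the median was -0.27. Krt8 of the luminal layer had 205, 226 and 218 CPM against 230, 252 and 289 CPM, higher without overlap (adjusted p = 0.934). Krt19 had 17.2, 11.3 and 9.8 CPM against 6.68, 2.63 and 2.77 CPM, lower without overlap (adjusted p = 0.832). Chosen after its values were seen, Krt18 had 775, 589 and 520 CPM against 900, 823 and 943 CPM, higher without overlap (adjusted p = 0.648). Krt7, chosen likewise, overlapped (log2 fold change 0.23 ± 0.28, adjusted p = 0.975). Of 34 tested luminal duct and ionocyte genes 0 were called, and the median was 0.03. At an unadjusted p below 0.05, 2 were higher and 5 lower. Kit, a receptor used to mark salivary progenitors, had 3.35, 6.58 and 2.8 CPM against 1.03, 9.21 and 13.8 CPM (adjusted p = 0.958). Mki67, the proliferation marker, had 84.2, 88.4 and 154 CPM against 179, 134 and 72.7 CPM (adjusted p = 0.998). The medians of the 37 G1/S and 48 G2/M genes were -0.02 and 0.12, with 0 calls by edgeR and 0 and 1 members past an unadjusted p of 0.05.

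No gene was called higher at day 90 by edgeR, and DESeq2 called 1, Mphosph8, a chromatin protein that binds methylated histone H3. It had 65.1, 74.3 and 75.2 CPM at day 14 and 105, 115 and 132 CPM at day 90 (edgeR log2 fold change 0.71 ± 0.17, adjusted p = 0.139, DESeq2 adjusted p = 0.0337). Other genes without overlap, chosen after their values were seen, were Nox4, an oxidase that makes hydrogen peroxide, with 2.87, 0.94 and 0.934 CPM against 6.68, 10.5 and 9.69 CPM (edgeR adjusted p = 0.226), and Dusp6, a feedback phosphatase of ERK, with 71.8, 95.0 and 126 CPM against 154, 181 and 190 CPM (adjusted p = 0.647).

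The day effect in irradiated organoids was set against that in sham organoids, which share no library with it. In sham, 0 genes were called by edgeR (0%), 1025 had an unadjusted p below 0.05, and DESeq2 called 52. The difference between the day effects was called for 2 genes, or 0.0189%, Tmprss4 and Car6, both lower in irradiated organoids relative to sham. Tmprss4 had 41, 34.2 and 43.4 CPM at day 14 and 85.4, 92.8 and 87.7 CPM at day 90 in sham (log2 fold change 1.16, edgeR adjusted p = 0.0986). Every day-90 sham library was above every day-14 sham library, the reverse of the order in irradiated organoids. The difference was -2.85 ± 0.39 (edgeR adjusted p = 0.00222), and it remained called in all 21 alternatives, with adjusted p from 3.57e-17 to 0.0261. Car6 had 13.4, 5.21 and 11.2 CPM against 28.1, 11.6 and 9.78 CPM in sham, and the difference was -4.76 ± 0.78 (edgeR adjusted p = 0.0282). It was called in 12 of 21 alternatives. The number of genes called for the difference was 23 without day-14 IR replicate 3.

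**Figure D5:**
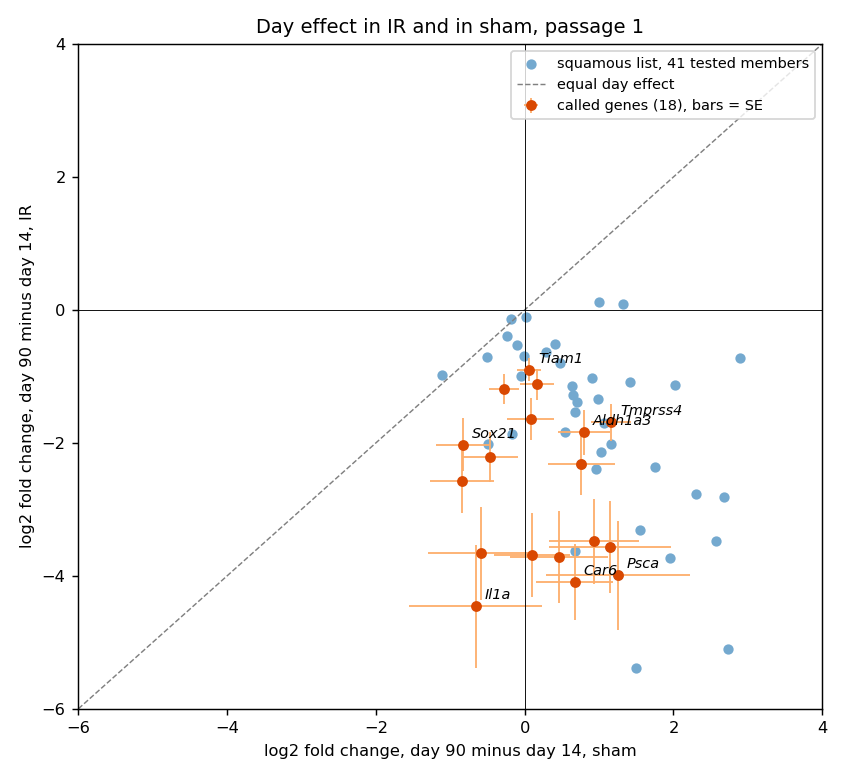
The x axis is the log2 fold change of day 90 minus day 14 in sham organoids and the y axis the same in irradiated organoids, passage 1. Orange points with SE bars are the 18 called genes, blue points the 41 tested squamous genes, and the dashed line marks equal day effects. All 18 called genes lie below the dashed line.

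All 18 called genes had a negative difference from sham, 18 at an unadjusted p below 0.05, but they were chosen on the same irradiated libraries, so this carries no separate weight. The same choice favours high day-14 IR and low day-90 IR levels, so their levels beside sham are a description. In 13 of the 18 genes every day-14 IR library was above every day-14 sham library, as in 8.84% of all tested genes. Every day-90 IR library was below every day-14 sham library in 5 (7.82% of all tested genes) and below every day-90 sham library in 6 (10.3%). Slc6a14, for one, had 6.71, 11 and 12.3 CPM in day-14 sham and 8.99, 5.61 and 7.72 CPM in day-90 sham, near its day-90 IR levels and below its day-14 IR levels.

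The squamous list had a median log2 fold change of 0.91 in sham and -1.39 in irradiated organoids. Of the 41 members, 22 had a lower day effect in irradiated organoids than in sham at an unadjusted p below 0.05 and 0 a higher one, where 4.74% and 3.37% of all tested genes did, and 0 were called. Their mean log2 CPM was 3.51, 3.63 and 3.89 in day-14 sham and 5.32, 3.52 and 3.91 in day-90 sham, where replicate 1 stood apart. In Spink5 that library had 647 CPM and the other day-90 sham libraries 47.6 and 85.9 CPM. Of the 46 NRF2 genes, 13 had a lower day effect at an unadjusted p below 0.05 and 0 a higher one. Their mean log2 CPM was 6.42, 6.59 and 5.97 in day-14 IR and 5.76, 6.03 and 6.02 in day-90 IR, with overlap, against 5.49, 5.64 and 5.74 in day-14 sham.

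Passage 2 organoids, grown on from passage 1 and so perhaps not independent of it, gave a second set of irradiated libraries. The difference of the day effect between the passages was called for 0 genes by edgeR (0%), 721 had an unadjusted p below 0.05, and DESeq2 called 1. All 18 called genes had a negative day effect in passage 2 as well, from -5.83 to -0.13 with a median of -1.04, where 51.1% of all tested genes were negative. In passage 2, 25 of all tested genes (0.237%) passed the test as lower at day 90 and 21 as higher, unlike passage 1, where 0 were higher. Of the 18, 2 were among the lower ones, 2310057J18Rik (log2 fold change -3.9, edgeR adjusted p = 0.028) and S100a8 (log2 fold change -2.61, adjusted p = 0.0453). The smallest p-values for the difference between passages fell on Srxn1, with a day effect of -1.47 in passage 1 and 0.73 in passage 2, Rnf150 (1.06 and -1.02) and Creg1 (-0.43 and 0.62), each at an edgeR adjusted p of 0.642. Bmp4 had a log2 fold change of 0.9 in passage 1 and 1.97 in passage 2 (edgeR adjusted p = 0.0552), and the difference between them was not called (adjusted p = 0.743).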

How the data were processed

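The deposited files hold raw counts per gene, 1 file per library. The submitters' processing notes name the build GRCm39 and the tool bcl2fastq. The choice of aligner, counter and strand setting was not given in the sources used here. Each file lists 47643 genes and 5 lines that name no gene, which were left out, and reads on no gene made up 11.5% to 26.5% of a library. Groups came from the labels. Gene symbols were matched by identifier for 47224 genes.

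Counts were tested with edgeR 4.0.16 (R 4.3.3): TMM factors, filterByExpr on the 8 groups (10563 genes), 1 mean per group over all 24 libraries, glmQLFit and glmQLFTest, Benjamini-Hochberg adjustment over all tested genes, called at 0.05. SE is the absolute log2 fold change over the square root of F. The script was tested on simulated data. Alternatives were DESeq2 1.42.0, other scalings, filters and covariates, a replicate block and leaving out libraries.

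Members and the 45 gene lists were chosen with earlier results of these data known. Named genes were 13 fixed ones, up to 10 called per direction by size with a mean of 5 CPM or more and no overlap (leaving out predicted genes, names ending in Rik and pseudogenes named -ps), up to 4 called per list with 2 or more called, and the genes with the smallest p for the differences. Others were chosen after their values were seen. Replicate numbers carry no stated pairing, and the file of day-90 IR replicate 3 carries another number in its name than its label does, and was assigned by the label. In the 24 pairs of libraries within a group the chi-square per degree of freedom was 2.07 to 26.7, above sampling noise. Motif search and figures used Python 3.11.15 and matplotlib 3.10.9.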

Additional observations from a re-analysis of the deposited data

Results flagged for a closer look

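Tmprss4 and Car6 differed between irradiated and sham organoids in their change from day 14 to day 90, by a test of the difference itself. The difference of the log2 fold changes was -2.85 for Tmprss4 (edgeR adjusted p = 0.00222) and -4.76 for Car6 (edgeR adjusted p = 0.0282). It stayed called in all 21 alternatives for Tmprss4 but in only 12 of 21 for Car6. The test for a single outlying value was not run, since it needs groups of 4 or more.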

How the results depend on the processing

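Of the 18 called genes, 0 kept the call under every alternative. All 18 kept a negative direction wherever they were tested, which follows largely from their choice on the same libraries without overlap. For day 90 against day 14 in irradiated organoids the 18 calls became 35 with DESeq2, 180 with no filter, 3 with only the compared groups and 0 to 31 with 1 library left out. For sham the 0 calls became 52 with DESeq2, 2 with total counts, 223 with no filter, 5 with the stricter filter, 5 without ribosomal RNA genes, 1 with only the compared groups and 0 to 15 with 1 library left out (15 without day-14 sham replicate 3). For the difference between irradiated and sham the 2 calls became 24 with DESeq2, 12 with total counts, 196 with no filter, 4 with the Gm42418 covariate and 1 to 23 with 1 library left out. For the difference between passages the 0 calls became 1 with DESeq2, 128 with no filter and 0 to 1 with 1 library left out (1 without day-90 passage 2 IR replicate 1). The cause was not tested. With the replicate block the calls were 14 for irradiated, 3 for sham, 2 for the difference from sham and 0 for the difference between passages. Deviations from the group mean correlated at -0.129, 0.033 and -0.135 between same-numbered irradiated libraries of the 2 days. Unlike-numbered ones gave -0.046 to 0.155. With 3 libraries a group, these values cannot settle whether the numbers share an animal or a batch.

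Small uncalled values changed sign. Id3 went from 0.16 to -0.05 with the Gm42418 covariate, -0.03 without day-14 IR replicate 1 and -0.01 without day-90 IR replicate 3, and Mdm2 from -0.04 to 0.04 and 0.08 without the same 2 libraries. With 1 library left out, Id3 ran from -0.03 to 0.45, Mdm2 from -0.16 to 0.08, Mki67 from -0.08 to 0.58, Epcam from -0.22 to 0.01 and Trp63 from -0.53 to 0.07. The sign changed without day-90 IR replicate 1 for Mki67, day-14 IR replicate 2 for Epcam and day-14 IR replicate 3 for Trp63. The medians of the squamous and NRF2 lists, added after seeing the data, stayed negative under every alternative, from -1.75 to -1.11 and from -0.38 to -0.14, the last without day-14 IR replicate 2. At 1151608 to 2192990 counts a library, genes of a few CPM rest on few reads.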
